A study of Mus musculus with 18 samples.

Results

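Macrophages taken from the injured mouse spinal cord after rIL-4 were compared with macrophages taken after rIL-13. The 6 libraries were chosen by their labels, 3 from rIL-4 mice and 3 from rIL-13 mice, out of 18 libraries in the series. Genes were members if they lay outside the mitochondrial genome and had at least 10 counts in each of the 6 libraries, which left 11527 of the 53465 genes in the count table, 10732 of them protein-coding. All mice were female C57BL/6J of 8 to 10 weeks with a spinal cord contusion (SCI) at the level of thoracic vertebra 11. At 48 h after SCI, 100 ng of recombinant IL-4 (rIL-4, mice 8, 9 and 10) or recombinant IL-13 (rIL-13, mice 5, 6 and 7) was injected into the contused cord, and PBS, the vehicle, was given to mice 1, 2 and 3. Cells were collected 24 h later. Macrophages were sorted as CD45high CD11b+ F4/80+ cells, and microglia of the same cords as CD45low cells, which gave 1 library of each cell type per mouse. The gate separates the cells by their CD45 level and not by their origin. The question was which transcripts separate the responses of macrophages to these related cytokines.

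IL-4 and IL-13 share the receptor made of IL-4Rα and IL-13Rα1, and IL-4 can also use a receptor made of IL-4Rα and the common γ chain. Receptor engagement activates JAK kinases, which phosphorylate STAT6, and in the common γ chain receptor also the IRS2 and AKT branch. In macrophages STAT6 drives the genes of alternative activation, such as Retnla, Chil3 and Mrc1, while SOCS1 and CISH act as feedback inhibitors. In the injured cord, blood-derived macrophages lie next to resident microglia, which are marked by genes such as Tmem119, P2ry12, Cx3cr1, Sall1 and Sparc.

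The depth was 35961305 to 39783556 counts per library with rIL-13 and 42320537 to 45849829 with rIL-4, so that every rIL-4 library was deeper than every rIL-13 library. PBS macrophages had 36445342 to 38426762. Macrophage identity genes were present in every library, and 0 of 10 were at 0. Their summed level was 22026, 10920 and 17681 CPM (counts scaled to the total of the library) in rIL-13 mice 5, 6 and 7. It was 19359, 12646 and 15668 CPM in rIL-4 mice 8, 9 and 10. In contrast, T and NK cell markers summed to at most 5.45 CPM with rIL-13 and 8.57 CPM with rIL-4, and neuronal markers to less than 1 CPM in all 6 libraries. On log2(normalised count + 1), the first principal component held 46.8% of the variance and did not separate the cytokines. It set rIL-13 mouse 6 (51.6) and rIL-4 mouse 9 (22.8) apart from the other 4 libraries, which lay between -40.5 and -8.29. The second component held 25.5%, with scores of -35.1, -7.85 and -14.6 in rIL-13 mice 5, 6 and 7 and of 13.9, 31.9 and 11.8 in rIL-4 mice 8, 9 and 10. Neutrophil markers (12 of 12 detected in both groups) moved with the libraries that stood apart, at 576, 3282 and 610 CPM in rIL-13 mice 5, 6 and 7 and 309, 1010 and 480 CPM in rIL-4 mice 8, 9 and 10. Astrocyte markers (54.6, 349.9 and 105 CPM with rIL-13 and 65.4, 463 and 155 CPM with rIL-4) and endothelial markers (251, 584 and 379 CPM and 351, 775 and 406 CPM) were likewise highest in mice 6 and 9. So were erythroid markers, at 0.417, 32.6 and 3.38 CPM with rIL-13 and 1.01, 6.73 and 1.22 CPM with rIL-4, while macrophage identity genes were lowest there. Fibroblast and pericyte markers were lower in every rIL-4 library than in any rIL-13 library, with values given beside Pmp22. Gm42418, a transcript that overlaps ribosomal RNA, was higher in every rIL-4 library, at 87.4 to 174 CPM with rIL-13 and 230 to 913 CPM with rIL-4. The part of these differences in depth and composition in the results that follow was not tested. Values without mice 6 and 9 concern only the libraries that stood apart. The differences in depth, Gm42418 and fibroblast and pericyte markers remained between the other libraries.

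**Figure D1:**
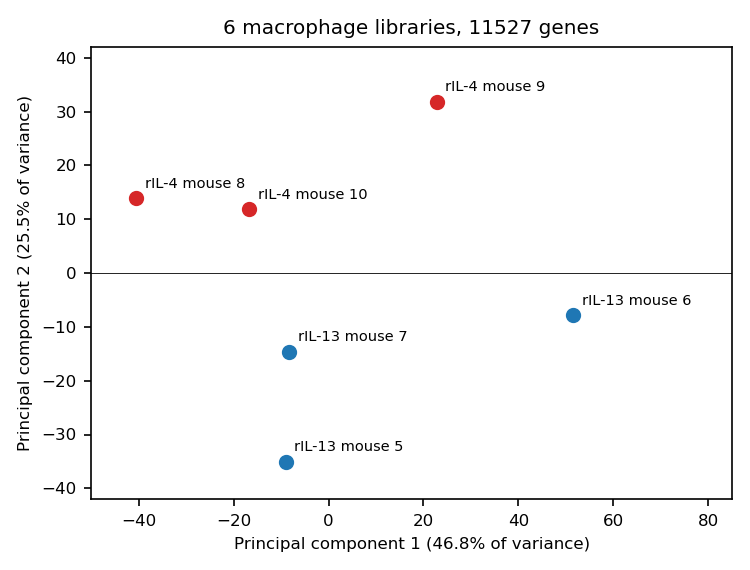
Scores of the 6 macrophage libraries on the first and second principal components of log2(normalised count + 1) over 11527 genes. Each point is a library (blue rIL-13, red rIL-4). The groups separate along the vertical axis (25.5% of the variance), while mice 6 and 9 lie to the right on the horizontal axis (46.8%).

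The number of genes called between the cytokines depended on the test. With edgeR's quasi-likelihood test on the 9 macrophage libraries and an adjusted p threshold of 0.05, 23 of 11527 genes (0.2%) were differentially expressed (DE), 3 of them higher (0.026%) and 20 lower (0.174%) with rIL-4. An unadjusted p under 0.05 was found for 1260 genes (10.9%), 664 higher (5.76%) and 596 lower (5.17%). The 3 rIL-4 libraries did not overlap with the 3 rIL-13 libraries for 1601 genes (13.9%), with rIL-4 above for 809 (7.02%) and below for 792 (6.87%). DESeq2's Wald test, the tool of the study, called 334 of 11518 genes (2.9%), 143 higher (1.24%) and 191 lower (1.66%), and included all 23. Leaving out 1 rIL-4 library changed the edgeR count to 1 (mouse 8), 2 (mouse 9) or 4 (mouse 10). Leaving out mouse 5, given rIL-13, changed it to 4, and leaving out 1 PBS library to 15 (mouse 1), 45 (mouse 2) or 6 (mouse 3). Without rIL-13 mouse 6 and rIL-4 mouse 9 together it was 20, of which 12 were among the 23. All 23 genes kept their direction in every alternative in which they were tested. Pmp22 stayed DE in all 19 alternatives, and each of the other 22 lost the threshold with at least 2 of the 9 mice left out in turn. All 20 genes that were lower with rIL-4 had their highest mean with PBS, an intermediate mean with rIL-13 and the lowest with rIL-4, an order found in 47.6% of the 5676 tested genes with a log2 difference below 0. The choice of these 20 genes fixed the order of rIL-13 and rIL-4, but not the place of PBS.

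Rnase2a, Mogs and Cebpb were the DE genes with more transcript after rIL-4. Rnase2a (ENSMUSG00000047222.7, GRCm38 chromosome 14 from 51255262 to 51256112) encodes a secreted ribonuclease of the eosinophil-associated family that alternatively activated macrophages also make. It had 2307, 895 and 1775 normalised counts in rIL-13 mice 5, 6 and 7 and 7263, 6940 and 8031 in rIL-4 mice 8, 9 and 10, against 5.02, 8.61 and 5.98 in PBS mice 1, 2 and 3. All rIL-4 libraries lay above all rIL-13 libraries. The means were 7411 ± 560.5 (SD, n = 3) and 1659 ± 713 (n = 3), a log2 difference of 2.16 ± 0.29 (SE; edgeR, adjusted p = 0.0181). The eosinophil granule genes Epx, Prg2 and Prg3 had 0, 0 and 0 counts in the rIL-13 libraries, and together 1 count, of Prg2, in the rIL-4 libraries. The whole list of 8 eosinophil genes summed to 5.49 to 6.96 CPM with rIL-13 and 3.99 to 6.32 CPM with rIL-4, with 3 of 8 at 0 in each group, and Ccr3, the eotaxin receptor, was detected in all 6 libraries with 2 to 26 counts. Genes of this ribonuclease family have near-identical copies, between which RSEM divides shared reads, so that the level of a single copy is uncertain.

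Mogs (ENSMUSG00000030036.8, chromosome 6 from 83115496 to 83118898) encodes glucosidase I, which starts the trimming of N-glycans in the endoplasmic reticulum. It had 287, 251 and 264 normalised counts with rIL-13, 698, 559 and 672 with rIL-4 and 244, 277 and 295 with PBS. The rIL-13 and PBS libraries covered the same range, and the rIL-4 libraries lay above it, with a log2 difference from rIL-13 of 1.27 ± 0.17 (SE; edgeR, adjusted p = 0.0181). Cebpb (ENSMUSG00000056501.3, chromosome 2 from 167688915 to 167690418) encodes a bZIP transcription factor that acts with STAT6 at several genes of alternative activation. Its normalised counts were 309, 321 and 499 with rIL-13 and 1572, 5157 and 2015 with rIL-4, against 890, 1128 and 2024 with PBS. The lowest rIL-4 library therefore lay above the highest rIL-13 library, while PBS lay above rIL-13 and overlapped with rIL-4. The log2 difference was 2.96 ± 0.47 (SE; edgeR, adjusted p = 0.0446), and the protein-coding gene Tmem189, which overlaps Cebpb on the other strand, could share reads with it because the libraries carried no strand information. Of the other genes on the list of myeloid transcription factors (18 tested, 1 DE, with a median log2 difference of 0.22 that was 0.07 without rIL-4 mouse 8 and 0.10 with limma voom), the zinc finger factor Klf4 had 587 to 655 normalised counts with rIL-13 and 991 to 1168 with rIL-4, without overlap (0.83 ± 0.23, edgeR adjusted p = 0.197).

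**Figure D2:**
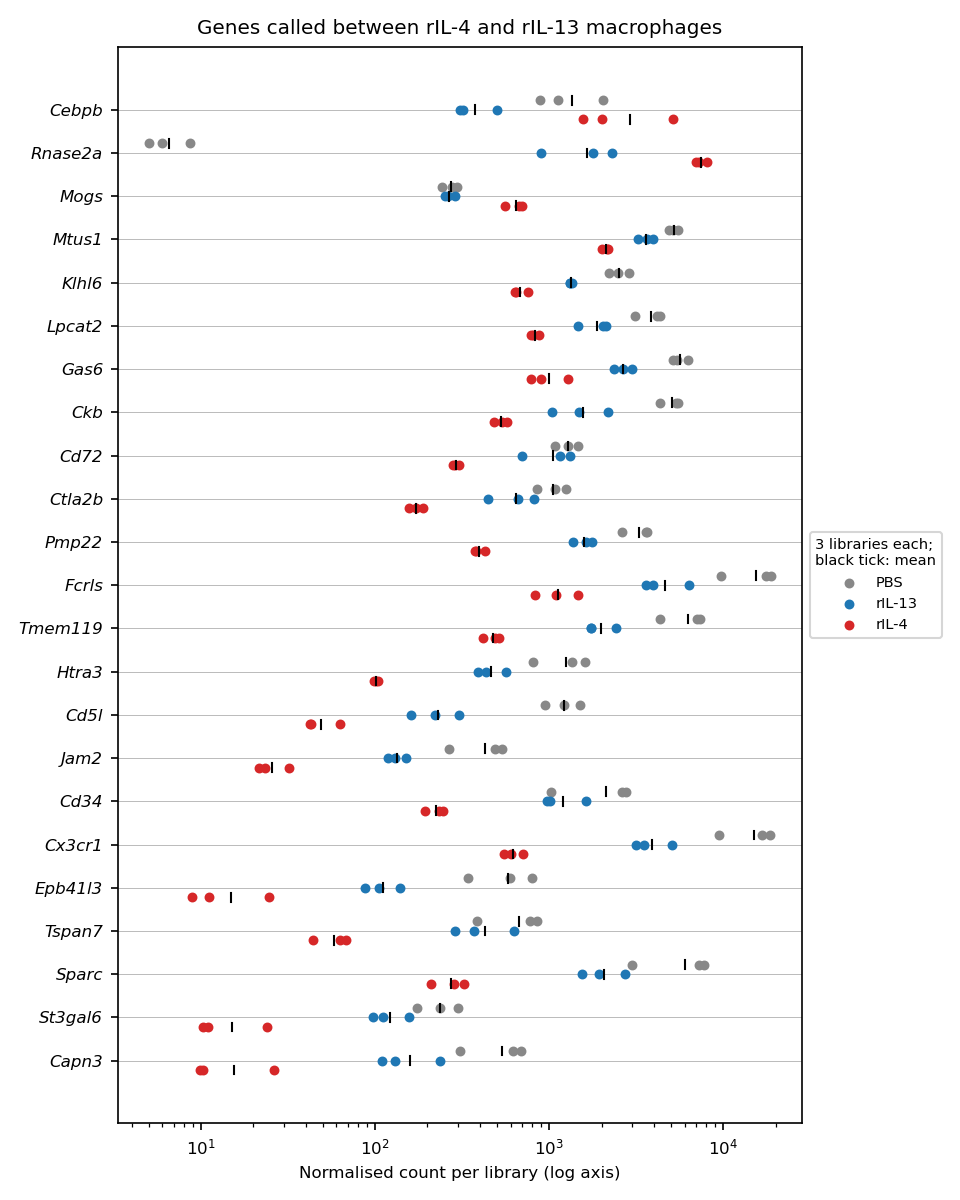
Normalised counts of the 23 DE genes in each macrophage library, on a log axis, with 3 libraries per group (grey PBS, blue rIL-13, red rIL-4) and a black tick at the group mean. The red points lie to the right of the blue ones for Cebpb, Rnase2a and Mogs and to the left for the other 20 genes, where grey points are the highest on average.

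The promoters of these 3 genes, and that of Retnla, a classical STAT6 target described further on, are shown because the motifs of STAT factors and of C/EBP factors, the family of Cebpb, were searched in them. Each covers 250 bases before to 50 bases after the gene's start in RefSeq (GRCm38.p6), 5′ to 3′ on the strand of the gene. They lie at chr14:51256063-51256362 (minus strand), chr6:83115256-83115555 (plus), chr2:167688665-167688964 (plus) and chr16:48842359-48842658 (plus). Capitals mark TTC followed by GAA with 4 bases between them (STAT, 4 base spacing) or 3 bases between them (STAT, 3 base spacing), or TTGCNNAA (C/EBP), on either strand.
Rnase2a: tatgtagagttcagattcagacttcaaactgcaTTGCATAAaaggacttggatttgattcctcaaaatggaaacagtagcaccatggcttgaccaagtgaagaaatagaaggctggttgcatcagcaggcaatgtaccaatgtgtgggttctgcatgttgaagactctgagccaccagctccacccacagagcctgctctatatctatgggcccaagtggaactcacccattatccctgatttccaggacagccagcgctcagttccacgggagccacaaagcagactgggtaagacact
Mogs: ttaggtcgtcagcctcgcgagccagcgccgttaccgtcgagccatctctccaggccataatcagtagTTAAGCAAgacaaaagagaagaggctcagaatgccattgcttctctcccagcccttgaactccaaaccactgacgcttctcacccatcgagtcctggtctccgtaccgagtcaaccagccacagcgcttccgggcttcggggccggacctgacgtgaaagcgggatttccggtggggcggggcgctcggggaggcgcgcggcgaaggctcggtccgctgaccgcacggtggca
Cebpb: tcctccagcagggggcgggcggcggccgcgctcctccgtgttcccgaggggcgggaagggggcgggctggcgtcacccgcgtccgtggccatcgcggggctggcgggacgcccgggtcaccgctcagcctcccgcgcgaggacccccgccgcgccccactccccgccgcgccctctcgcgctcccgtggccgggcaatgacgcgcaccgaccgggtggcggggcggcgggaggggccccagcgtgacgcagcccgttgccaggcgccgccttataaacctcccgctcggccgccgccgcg
Retnla: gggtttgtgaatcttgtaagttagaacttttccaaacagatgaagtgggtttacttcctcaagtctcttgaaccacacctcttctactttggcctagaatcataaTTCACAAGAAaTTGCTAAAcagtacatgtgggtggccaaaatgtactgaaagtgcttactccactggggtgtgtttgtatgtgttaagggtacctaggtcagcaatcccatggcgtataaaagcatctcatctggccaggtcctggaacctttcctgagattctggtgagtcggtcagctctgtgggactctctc
The C/EBP letters were found in Rnase2a, starting 217 bases before the gene's start, in Mogs (183 bases before) and in Retnla (134 bases before), and Retnla also held the STAT letters with 4 base spacing, 145 bases before its start and next to the C/EBP letters without overlap. None of the 3 motifs was present in this window of Cebpb. Of the 8761 tested genes with a promoter in the table, 10.2% held the C/EBP letters, 6.60% the STAT letters with 4 base spacing and 8.34% those with 3 base spacing. Over all 27025 genes in the table the shares were 12.2%, 8.01% and 9.55%. Among the 20 genes that were lower with rIL-4, 17 had a promoter entry, and 1 of these (Cd5l, STAT letters with 4 base spacing at 250 bases before its start) held any of the 3. A match is a description of the letters and no evidence of binding.

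The lower genes were led by Pmp22 and by genes that are known for resident microglia. Pmp22 (ENSMUSG00000018217.12, chromosome 11 from 63128982 to 63159547), a tetraspan membrane protein best known from myelin, had 1761, 1620 and 1373 normalised counts in rIL-13 mice 5, 6 and 7 and 426, 376 and 379 in rIL-4 mice 8, 9 and 10, against 3610, 2604 and 3635 with PBS. The 3 groups did not overlap. The mean was 4.02-fold higher with rIL-13 than with rIL-4, a log2 difference of -2.00 ± 0.17 (SE; edgeR, adjusted p = 0.00294). Oligodendrocyte markers as a whole summed to 115 to 122 CPM with rIL-13 and 117 to 131 CPM with rIL-4, with 0 of 12 and 2 of 12 markers at 0. They did not move with Pmp22 between the cytokines, but were higher with PBS, at 170 to 202 CPM. Fibroblast and pericyte markers did move with Pmp22 and the other lower genes between the cytokines, at 17.2, 14.8 and 14.7 CPM in rIL-13 mice 5, 6 and 7 and 3.54, 2.69 and 4.56 CPM in rIL-4 mice 8, 9 and 10, without overlap and with 0 of 12 and 1 of 12 markers at 0. With PBS they were at 11.6 to 25.4 CPM, which overlapped with rIL-13. Their part in these results was not tested.

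Cx3cr1 (ENSMUSG00000052336.7, chromosome 9 from 119901616 to 120069879), the fractalkine receptor of microglia and patrolling monocytes, had 5062, 3148 and 3481 normalised counts with rIL-13 and 601, 548 and 711 with rIL-4, against 16667, 9508 and 18554 with PBS. Its groups did not overlap either, and rIL-13 was 6.28-fold higher than rIL-4 (log2 difference -2.64 ± 0.27, edgeR adjusted p = 0.0107). The annotated span of Cx3cr1 overlaps the tested genes Wdr48, Gorasp1 and Csrnp1, with means of 1550.3, 1243 and 648 counts over the 6 libraries, and could share reads with them. Tmem119 (ENSMUSG00000054675.5, chromosome 5 from 113793729 to 113800516), a membrane protein used to tell microglia from other macrophages, had 2430, 1749 and 1734 with rIL-13 and 516, 415 and 489 with rIL-4 (-2.05 ± 0.23, edgeR adjusted p = 0.0126). Sparc (ENSMUSG00000018593.13, chromosome 11 from 55394500 to 55423183), a matricellular protein made by microglia and by stromal cells, had 2723, 1935 and 1548 with rIL-13 and 326, 209 and 285 with rIL-4 (-2.91 ± 0.37, edgeR adjusted p = 0.0181). Tspan7 (ENSMUSG00000058254.12, X chromosome from 10485158 to 10596605), a tetraspanin, had 627, 372 and 286 with rIL-13 and 62.5, 67.9 and 43.7 with rIL-4 (-2.87 ± 0.39, same adjusted p). In each of these genes the highest rIL-4 library was below the lowest rIL-13 library. Fcrls (ENSMUSG00000015852.13), an Fc receptor-like scavenger receptor and the last DE gene of the microglia list, had 6378, 3620 and 3942 with rIL-13 and 1467, 824 and 1100 with rIL-4 (-2.03 ± 0.32, edgeR adjusted p = 0.0394).

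The whole list of microglia markers pointed the same way. Of 20 listed genes, 16 were tested, and all 16 had a log2 difference below 0 (49.2% of all tested genes did), with a median of -1.78 against 0.00 over all genes. By edgeR 5 of the 16 were lower (0.174% of all genes) and 0 higher, DESeq2 called 13 lower (1.66% of all genes), and the rIL-4 libraries lay below all rIL-13 libraries for 14 (6.87% of all genes). The 20 markers summed to 2217, 1199 and 1480 CPM in rIL-13 mice 5, 6 and 7 and to 933, 514 and 696 CPM in rIL-4 mice 8, 9 and 10, with 1 of 20 (Ccr6) and 0 of 20 at 0 in all libraries of the group. In PBS macrophages the sum was 2881 to 4577 CPM. The microglia libraries of the same mice summed to 5523 to 10583 CPM with rIL-13 and to 4096 to 5920 CPM with rIL-4, and these ranges overlapped. Sall1, a zinc finger factor that defines microglial identity, had 259, 111 and 177 normalised counts with rIL-13 and 24.5, 20.4 and 15.2 with rIL-4, without overlap (-3.17 ± 0.53, edgeR adjusted p = 0.0522). P2ry12, the purinergic receptor of resting microglia, had 2040, 1903 and 1307 with rIL-13 and 603, 665 and 707 with rIL-4 (-1.40 ± 0.31, edgeR adjusted p = 0.111). In bulk libraries, fewer cells of a type and less RNA of its genes per cell cannot be told apart. The list's median was between -1.91 and -1.70 in the fits without 1 mouse and -1.75 without mice 6 and 9 together. The number of DE genes in the list was 0 without mouse 8, 0 without mouse 9, 1 without mouse 10 and 2 to 7 without 1 of the other mice.

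The markers differed in how their level compared with that of microglia. The macrophage level was divided by the microglia level of the same mouse, both in CPM. The median over the 16 markers was 15.0%, 22.8% and 12.0% in rIL-13 mice 5, 6 and 7 and 9.40%, 12.0% and 9.96% in rIL-4 mice 8, 9 and 10, against 22.6%, 22.3% and 25.0% with PBS. Within the rIL-4 mice the share was 0.884%, 0.569% and 0.983% for Sparc, the lowest of the 16 in mice 8 and 10 and next to Siglech (0.567%) in mouse 9, and 50.2%, 45.2% and 81.5% for Gpr84, the highest in all 3 mice and a receptor for medium-chain fatty acids that activated myeloid cells express. Gpr84 had a log2 difference of -0.78 ± 0.30 (edgeR, adjusted p = 0.373), whereas Sparc and Cx3cr1 (3.34%, 4.09% and 5.90% of the microglia level with rIL-4) were DE.

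The other named DE genes were of mixed function, and the lower microglia markers moved with them, whose part was not tested. Gas6 (ENSMUSG00000031451.6, chromosome 8 from 13465374 to 13494490), the ligand that bridges phosphatidylserine on dying cells to the receptors Axl and Mertk, had 3008, 2642 and 2359 normalised counts with rIL-13 and 899, 784 and 1291 with rIL-4, against 6301, 5111 and 5447 with PBS. The groups did not overlap (-1.42 ± 0.19, edgeR adjusted p = 0.0181). Cd5l (ENSMUSG00000015854.7, chromosome 3 from 87357881 to 87371073), a secreted macrophage protein that inhibits apoptosis, had 305, 160 and 221 with rIL-13 and 42.2, 42.8 and 62.5 with rIL-4, against 1213, 945 and 1505 with PBS (-2.21 ± 0.29, edgeR adjusted p = 0.0181). Cd72 (ENSMUSG00000028459.11, chromosome 4 from 43446462 to 43454628), an inhibitory C-type lectin, had 1149, 1309 and 694 with rIL-13 and 289, 281 and 304 with rIL-4, against 1282, 1081 and 1472 with PBS (-1.84 ± 0.23, edgeR adjusted p = 0.0181). Unlike Gas6 and Cd5l, Cd72 overlapped between rIL-13 and PBS, so that the rIL-4 libraries alone stood below the rest.

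St3gal6 (ENSMUSG00000022747.16, chromosome 16 from 58468125 to 58524243), a sialyltransferase, had 110, 156 and 97.0 normalised counts with rIL-13 and 10.98, 10.2 and 24.1 with rIL-4 (-2.98 ± 0.40, edgeR adjusted p = 0.0181). Jam2 (ENSMUSG00000053062.15, chromosome 16 from 84774123 to 84825928), a junctional adhesion molecule, had 151, 130 and 118 with rIL-13 and 32.1, 23.2 and 21.4 with rIL-4 (-2.36 ± 0.32, same adjusted p). Htra3 (ENSMUSG00000029096.15, chromosome 5 from 35652023 to 35679782), a secreted serine protease, had 568, 434 and 392 with rIL-13 and 104, 98.5 and 101 with rIL-4 (-2.19 ± 0.26, same adjusted p). These 3 genes were without overlap between the cytokines. Ctla2b (ENSMUSG00000074874.10, chromosome 13 from 60895350 to 60897447), a cysteine protease inhibitor gene with close copies that may share its reads, had 660, 821 and 443 with rIL-13 and 172, 157 and 188 with rIL-4 (-1.89 ± 0.24, edgeR adjusted p = 0.0181). The remaining 7 DE genes, outside the rule for named genes and listed after their values were seen, were Klhl6, Lpcat2, Cd34, Capn3, Ckb, Epb41l3 and Mtus1. Their log2 differences ran from -3.34 (Capn3) to -0.76 (Mtus1), and their rIL-4 libraries lay below all rIL-13 libraries. Of the DE genes, Cd72, Capn3 and Mtus1 also overlap a tested gene (Tesk1, Ganc and Gm16192) with which they could share reads.

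These genes too had a higher level in microglia than in macrophages. As a share of the microglia level of the same mouse, in CPM, the macrophage level of Cd72 was 13.95% to 24.2% with rIL-13 and 4.81% to 7.79% with rIL-4, that of Jam2 1.75% to 4.32% and 0.791% to 1.09%, and that of Cd5l 25.8% to 43.5% and 5.69% to 6.84%. Ctla2b (13.8% to 18.3% and 6.38% to 10.1%) was also without overlap, while Htra3 (6.74% to 12.4% and 3.799% to 10.1%) and Gas6 (25.4% to 40.2% and 12.0% to 26.9%) overlapped.

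Receptors and transducers of the pathway had differences of either sign, none past the test. Of 32 listed genes, 30 were tested, with 17 above 0, a median log2 difference of 0.06 and 0 DE by edgeR. The median was 0.18 without mouse 6, 0.12 without mouse 7 and 0.0082 without mouse 5. DESeq2 called 1 higher (Cish), and 7 had an unadjusted edgeR p under 0.05, all higher with rIL-4 (23.3% of the list against 5.76% of all genes). Il13ra2, the decoy receptor, and Irs1 had 0 counts in all 6 libraries. Il4ra, the shared receptor chain, had 14858, 58866 and 24013 normalised counts in rIL-13 mice 5, 6 and 7 and 11748, 46648 and 21895 in rIL-4 mice 8, 9 and 10. Here mice 6 and 9 were the highest of their groups, and the groups overlapped (-0.28 ± 0.53, edgeR adjusted p = 0.911). Il13ra1 had 3338 to 4517 with rIL-13 and 2521 to 3703 with rIL-4 (-0.32 ± 0.17, edgeR adjusted p = 0.546), and Stat6, the transcription factor that both cytokines activate, 8619 to 11669 and 9990 to 10165 (0.05 ± 0.14, edgeR adjusted p = 0.946). Il2rg, the common γ chain of the receptor that IL-4 alone of the pair can use, had 3202, 2690 and 3566 with rIL-13 and 4825, 4212 and 3623 with rIL-4, without overlap (0.43 ± 0.15, edgeR adjusted p = 0.347).

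Of the same list, 2 feedback inhibitors and 2 genes of the IRS2 branch are described here, none of which passed the test. Cish, a SOCS family inhibitor that STAT factors induce, had 554, 1162 and 456 normalised counts with rIL-13 and 1375, 3912 and 1399 with rIL-4, against 58.8 to 111 with PBS. The cytokine groups did not overlap (1.63 ± 0.47, edgeR adjusted p = 0.221). Socs1 had 414, 886 and 297 with rIL-13 and 651, 1591 and 799 with rIL-4 (0.94 ± 0.42, edgeR adjusted p = 0.459), with overlap. Irs2, the docking protein, had 280 to 354 with rIL-13 and 640, 309 and 705 in rIL-4 mice 8, 9 and 10 (0.76 ± 0.28, edgeR adjusted p = 0.352). Akt1, the kinase downstream of it, had 919 to 1102 and 1201 to 1580 (0.47 ± 0.15, edgeR adjusted p = 0.264), without overlap.

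Genes of alternative activation lay mostly higher with rIL-4, while Mrc1 overlapped between the groups. Of 42 listed genes 40 were tested, 34 of them above 0 (50.8% of all genes), with a median log2 difference of 0.50. Rnase2a was the only one of them that was DE by edgeR. An unadjusted p under 0.05 was found for 15 higher and 3 lower genes, which are 37.5% and 7.50% of the list against 5.76% and 5.17% of all genes, and DESeq2 called 9 higher (1.24% of all genes) and 3 lower (1.66%). This list names genes that earlier work tied to these cytokines, and it was chosen with results of these data known. The 40 genes had the mean order PBS below rIL-13 below rIL-4 for 32, against 26.6% of all genes. The list's median was between 0.33 (without rIL-4 mouse 9) and 0.78 (without rIL-13 mouse 6), and 0.52 without mice 6 and 9 together.

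Retnla (ENSMUSG00000061100.3, chromosome 16 from 48842551 to 48844461), which encodes the secreted protein RELMα and whose promoter is printed above, had 8951, 8657 and 4323 normalised counts with rIL-13 and 18352, 44637 and 28936 with rIL-4, against 0, 2.15 and 0.997 with PBS. The rIL-4 libraries were all above the rIL-13 libraries, but their spread was wide and the log2 difference of 2.07 ± 0.36 (SE) had an edgeR adjusted p of 0.0627. Pdcd1lg2, the checkpoint ligand PD-L2, had 1052, 1521 and 833 with rIL-13 and 2372, 5983 and 3454 with rIL-4 (1.80 ± 0.32, edgeR adjusted p = 0.0639). Slc7a2, a cationic amino acid transporter that brings arginine into the cell, had 14577, 17743 and 12998 with rIL-13 and 24060, 40414 and 27399 with rIL-4 (1.03 ± 0.21, edgeR adjusted p = 0.0856). Mouse 9 was the highest rIL-4 library in all 3. Ear2, another ribonuclease of the eosinophil-associated family, had 3159, 3216 and 2917 with rIL-13 and 9805, 10328 and 6558 with rIL-4 (1.53 ± 0.32, edgeR adjusted p = 0.0998). The transcription factors Irf4 (1.06 ± 0.30, edgeR adjusted p = 0.210) and Egr2 (0.77 ± 0.26, edgeR adjusted p = 0.304), the lectin Mgl2 (0.95 ± 0.30, edgeR adjusted p = 0.269) and the chitinase-like Chil4 (1.15 ± 0.34, edgeR adjusted p = 0.230), which has a close copy in Chil3, had no overlap between the cytokines either.

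Mrc1, the mannose receptor CD206, had 36470, 53206 and 45904 with rIL-13 and 39568, 71725 and 53732 with rIL-4 (log2 difference 0.29 ± 0.22, edgeR adjusted p = 0.702). Chil3, a chitinase-like protein, had 2010110, 1986070 and 2700100 with rIL-13 and 2989520, 3931890 and 3248650 with rIL-4 (0.61 ± 0.34, edgeR adjusted p = 0.572). Chil3 was without overlap, Mrc1 was not, and both lay above every PBS library in both cytokine groups. Of the 6 listed genes below 0, the 3 with an unadjusted p under 0.05 were scavenger and folate receptors, namely Stab1, Msr1 and Folr2. Stab1, a clearance receptor, had 14492, 12518 and 16326 with rIL-13 and 7188, 5469 and 9268 with rIL-4, against 21621 to 30499 with PBS (-0.98 ± 0.21, edgeR adjusted p = 0.110). Msr1, a class A scavenger receptor, had 9085 to 13078 and 5744 to 7912 (-0.75 ± 0.18, edgeR adjusted p = 0.133), and Folr2, folate receptor β, 1343 to 1980 and 747 to 1128 (-0.79 ± 0.21, edgeR adjusted p = 0.197).

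**Figure D3:**
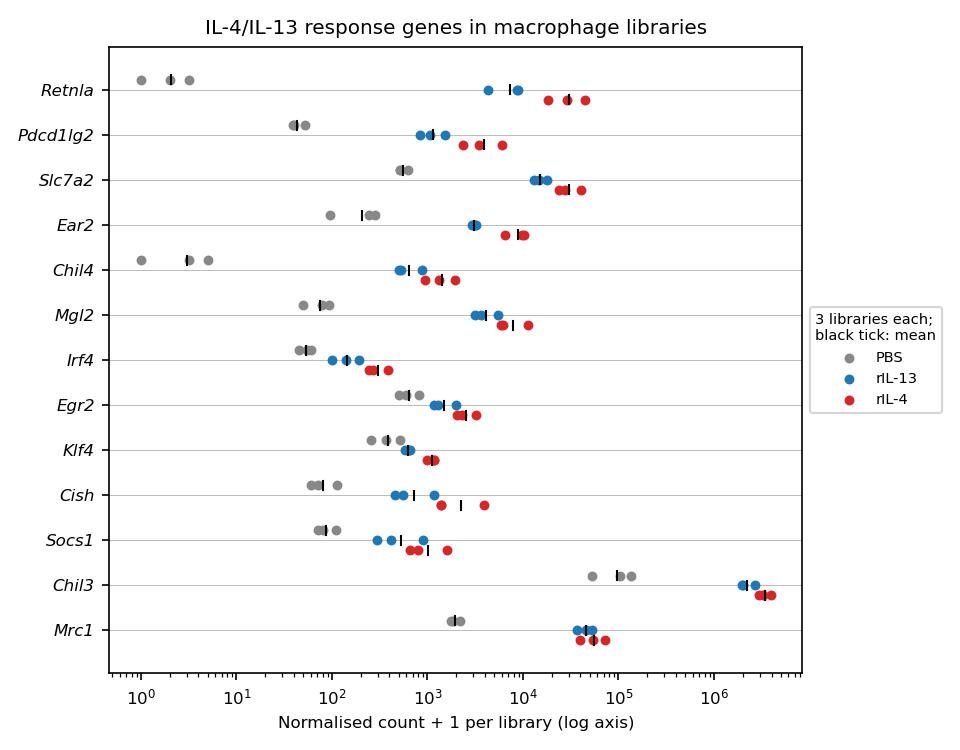
Normalised counts plus 1 of 13 genes of the IL-4/IL-13 response in each macrophage library, on a log axis, with 3 libraries per group (grey PBS, blue rIL-13, red rIL-4) and a black tick at the mean. From Retnla to Cish the red points lie to the right of the blue ones, while Mrc1 and Socs1 overlap between the cytokines.

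Genes of cell division lay lower with rIL-4 in their means, although none passed edgeR's adjusted threshold. Of 37 tested proliferation genes, 34 had a log2 difference below 0 (49.2% of all genes), with a median of -1.01. By edgeR 0 of 37 were DE, 24 had an unadjusted p under 0.05 and all 24 were lower (5.17% of all genes were), DESeq2 called 18 lower (1.66% of all genes) and 0 higher, and the rIL-4 libraries lay below all rIL-13 libraries for 31 (6.87% of all genes). Cdc20, an activator of the anaphase-promoting complex, had 638, 706 and 621 normalised counts with rIL-13 and 238, 247 and 245 with rIL-4, against 796, 396 and 832 with PBS (-1.42 ± 0.25, edgeR adjusted p = 0.0639). Birc5, the survivin of the chromosomal passenger complex, had 832, 695 and 555 with rIL-13 and 230, 294 and 213 with rIL-4 (-1.49 ± 0.27, edgeR adjusted p = 0.0639). Nusap1, a spindle protein, had 487, 441 and 277 and 139, 115 and 134 (-1.62 ± 0.32, edgeR adjusted p = 0.0856). In these mitotic genes the rIL-13 libraries lay within the range of PBS, and the rIL-4 libraries were below both. Cdk1, the mitotic kinase, had 531 to 921 with rIL-13 and 312 to 415 with rIL-4 (-0.99 ± 0.24, edgeR adjusted p = 0.154), and Mki67, the antigen Ki-67, 568 to 1183 and 320 to 527 (-0.92 ± 0.44, edgeR adjusted p = 0.493). The 3 members above 0, named after their values were seen, were E2f1, Ccne1 and Mcm4. E2f1, a factor of the G1/S transition, had 360 to 531 with rIL-13 and 428 to 584 with rIL-4 (0.20 ± 0.19, edgeR adjusted p = 0.777), and Ccne1, cyclin E1, 197 to 290 and 244 to 340 (0.28 ± 0.30, edgeR adjusted p = 0.806), both with overlap. The list's median stayed between -1.19 and -0.84 without any 1 mouse and was -1.02 without mice 6 and 9 together. The number of DE genes depended on the fit. It was 1 with only the 6 libraries compared, 9 with all 18 and 16 with all genes with any count, all lower. With limma voom it was 6, and without 1 mouse it was 4 (PBS mouse 2) or 0 (any other). The microglia markers (median -1.78, 16 of 16 below 0) moved with this list, and their part in it was not tested. Microglia expressed these genes too: Cdc20 had means of 3842 normalised counts in rIL-13 microglia and 3974 in rIL-4 microglia, on a scale set within the microglia libraries.

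In the set of complement and efferocytosis genes, which serve the clearance of dying cells, Gas6 was lower with rIL-4. Of 22 tested genes, 14 had a log2 difference below 0 (49.2% of all genes), the median was -0.26, and no other was DE by edgeR. A further 8 had an unadjusted p under 0.05, all lower (5.17% of all genes were), and DESeq2 called 5 lower (1.66% of all genes). C1qa, a chain of the complement recognition molecule C1q, had 31769, 22019 and 18355 normalised counts with rIL-13 and 13284, 11516 and 13578 with rIL-4 (-0.90 ± 0.19, edgeR adjusted p = 0.109). The partner chains C1qc (-0.81 ± 0.18, edgeR adjusted p = 0.110) and C1qb (-0.57 ± 0.19, edgeR adjusted p = 0.311) had no overlap between the groups either. Mertk, the receptor that Gas6 engages, had 2903 to 6843 with rIL-13 and 3278 to 5278 with rIL-4 (-0.24 ± 0.29, edgeR adjusted p = 0.840). The lower microglia markers given above moved with this list, and their part in it was not tested. Without rIL-13 mouse 5 the median of the list was 0.00.

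The medians of the monocyte and inflammatory lists took either sign across the fits. The 17 monocyte genes had a median log2 difference of -0.44 and the 25 inflammatory genes of -0.40, with 0 DE by edgeR in each. Without rIL-13 mouse 6 the medians were 0.17 and 0.40, and without rIL-4 mouse 9 they were -0.87 and -0.75. The inflammatory median was also above 0 with limma voom (0.19), with 1 surrogate variable (0.11) and without mice 6 and 9 together (0.03), where the monocyte median stayed below 0. Il1b had 1883, 10886 and 3407 normalised counts in rIL-13 mice 5, 6 and 7 and 2360, 6770 and 3518 in rIL-4 mice 8, 9 and 10 (-0.35 ± 0.57, edgeR adjusted p = 0.894), and Nos2, the inducible nitric oxide synthase, 302, 3091 and 921 and 170, 2046 and 724 (-0.55 ± 0.90, edgeR adjusted p = 0.894). The highest library of each group was again mouse 6 or mouse 9. In contrast, F13a1, the factor XIII A chain of monocytes, had 13728, 24582 and 23953 with rIL-13 and 6136, 11261 and 9940 with rIL-4, against 45404 to 48351 with PBS, without overlap (-1.18 ± 0.26, edgeR adjusted p = 0.111). Thbs1, thrombospondin 1, also had no overlap, at 120470 to 235969 and 35760 to 81872 (-1.49 ± 0.35, edgeR adjusted p = 0.122). All 12 neutrophil markers had a log2 difference below 0 with a median of -1.18 and 0 DE, but the median was -0.04 without rIL-13 mouse 6. S100a8, a calprotectin subunit, had 6971, 50504 and 6518 with rIL-13 and 2303, 11101 and 5076 with rIL-4 (-1.78 ± 0.81, edgeR adjusted p = 0.462).

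Lists of growth factors, the secretory pathway and antigen presentation had medians above 0. Of 11 growth factor genes, 9 were above 0, with a median log2 difference of 0.51 (0.27 without rIL-4 mouse 8, 0.77 without rIL-4 mouse 9) and 0 DE. Pdgfa, the A chain of platelet-derived growth factor, had 710, 685 and 599.7 normalised counts with rIL-13 and 1121, 1083 and 1320.1 with rIL-4, against 530.2 to 647 with PBS. Only the rIL-4 libraries lay outside the range of the rest for this gene (0.83 ± 0.15, edgeR adjusted p = 0.0639). Of 24 genes for N-glycans and protein folding in the endoplasmic reticulum, 21 were above 0, with a median of 0.19 (0.10 without rIL-13 mouse 6), Mogs as the only DE gene and no overlap with rIL-4 above for 8 (7.02% of all genes). Pdia4, a disulphide isomerase, had 47687 to 58699 with rIL-13 and 64374 to 93418 with rIL-4 (0.58 ± 0.17, edgeR adjusted p = 0.222). Of 12 MHC class II genes, 10 were above 0 (median 0.20, 0 DE; leaving out mouse 7 or mouse 8 gave medians of 0.10 and 0.12, and limma voom 0.03), and Cd74, the invariant chain, had 12934 to 15571 and 16262 to 26920 (0.64 ± 0.25, edgeR adjusted p = 0.379).

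Lists of energy metabolism were near 0 in macrophages. The 25 glycolysis genes had a median log2 difference of 0.00 with 12 above 0, the 34 genes of the TCA cycle and fatty acid oxidation 0.06 with 25 above 0, and the 77 nuclear-encoded genes of oxidative phosphorylation -0.13 with 22 above 0, with 0 DE by edgeR in all 3. DESeq2 called 2 glycolysis genes and 1 oxidative phosphorylation gene lower (1.66% of all genes were). It called 1 gene of the TCA cycle and fatty acid oxidation list higher (1.24% of all genes were). Single enzymes had differences of either sign without passing edgeR's test. Ldha, a lactate dehydrogenase subunit, had 68527 to 77268 normalised counts with rIL-13 and 87929 to 106981 with rIL-4 (0.41 ± 0.15, edgeR adjusted p = 0.352), whereas Ldhb, the other subunit, had 701 to 1590 and 356 to 467 (-1.40 ± 0.32, edgeR adjusted p = 0.117). Pfkfb3, which makes the allosteric activator of glycolysis, had 2704 to 3414 and 2043 to 2302 (-0.53 ± 0.13, edgeR adjusted p = 0.147), and Idh2, the mitochondrial isocitrate dehydrogenase, 4276 to 4935 and 5915 to 6343 (0.42 ± 0.11, edgeR adjusted p = 0.165). The 2 cytokine groups were without overlap for these 4 genes. The 14 arginine and polyamine genes (median 0.08), 28 sterol and lipid genes (0.07), 38 adhesion genes (-0.02) and 23 interferon genes (-0.22) held 0 DE genes, and the 24 immediate early and stress genes (0.20) held only Cebpb. The adhesion list did not include Jam2, the junctional adhesion molecule that was DE. The arginine and polyamine median was 0.02 without mouse 9 and 0.04 without mouse 10. Without 1 mouse the medians of the adhesion (-0.18 to 0.01), interferon (-0.54 to 0.02), sterol and lipid (-0.02 to 0.11), immediate early (-0.02 to 0.49) and glycolysis (-0.15 to 0.16) lists took either sign. The median of the oxidative phosphorylation list ran from -0.27 (mouse 7 left out) to -0.0088 (mouse 8 left out) and was 0.03 with limma voom, and that of the TCA cycle and fatty acid oxidation list ran from 0.02 to 0.11 without 1 mouse and was -0.0046 without mice 6 and 9 together.

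**Figure D4:**
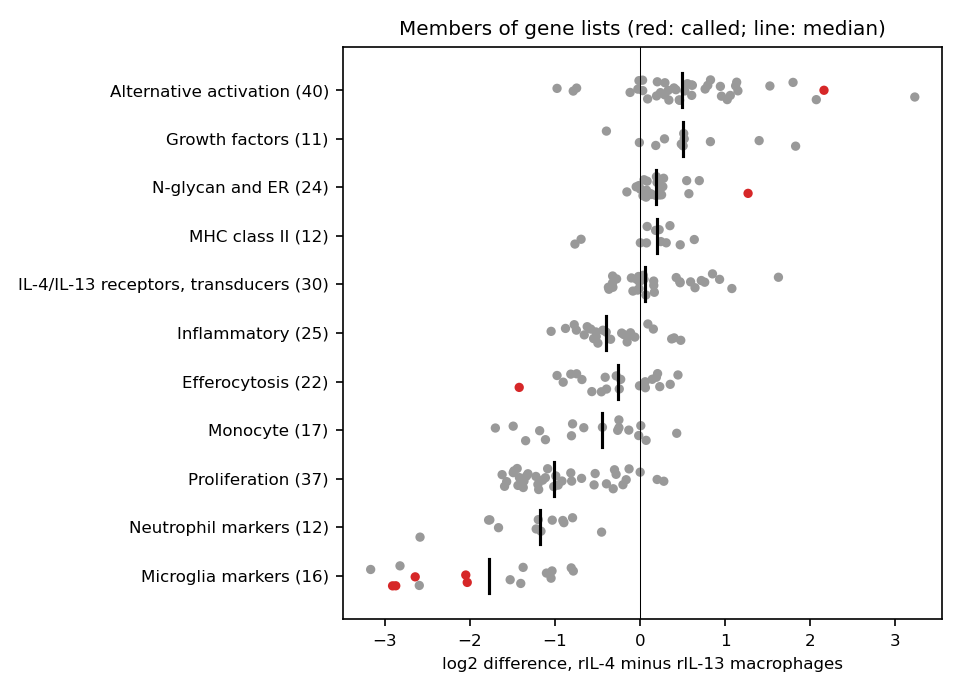
Log2 differences between rIL-4 and rIL-13 macrophages of the tested members of 11 gene lists, with the number of members in brackets. Each point is a gene (red DE by edgeR, grey not), and the black line is the list's median, from 0.51 for growth factors to -1.78 for microglia markers.

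The difference between the cytokines was larger in macrophages than in microglia of the same mice for a few of these genes. The interaction of cell type with cytokine in a fit of all 18 libraries passed an edgeR adjusted p of 0.05 for 18 of 11527 genes (0.156%), 11 more positive (0.0954%) and 7 more negative (0.0607%) in macrophages, and an unadjusted p under 0.05 was found for 998 (8.66%). Of the 18, 14 were at or near 0 in all rIL-4 or all rIL-13 microglia libraries, and none of these 14 was DE in macrophages. The count minimum had been set on the macrophage libraries only. Of the 10298 genes with at least 10 counts in each of the 12 cytokine libraries, 4 (0.0388%) passed in the same fit, namely Pmp22, Cd5l, Cd72 and St3gal6, and all 4 were DE in macrophages. Pmp22 had 10857 ± 1485 (SD, n = 3) normalised counts in rIL-13 microglia and 8138 ± 328 in rIL-4 microglia, a log2 difference of -0.44 ± 0.16 (SE). Its interaction was -1.57 ± 0.24 (edgeR, adjusted p = 0.0144). Cd5l had 601 ± 175 and 820.0 ± 155 in microglia, with an interaction of -2.65 ± 0.46 (edgeR, adjusted p = 0.0295), and Cd72 5448 ± 1420.5 and 5219 ± 834, with an interaction of -1.77 ± 0.31 (edgeR, adjusted p = 0.0295). St3gal6 had 4871 ± 2327 and 4608 ± 326, with an interaction of -2.90 ± 0.53 (edgeR, adjusted p = 0.0360). These calls depended on the mice: Pmp22 lost the threshold without mouse 5 (edgeR, adjusted p = 0.0609) and without mouse 6 (edgeR, adjusted p = 0.0646), and with 1 mouse left out in turn Cd5l and Cd72 lost it in 7 of 9 fits and St3gal6 in 6 of 9. With only the 12 cytokine libraries the edgeR adjusted p was 0.0280 for Pmp22, 0.103 for Cd5l, 0.131 for Cd72 and 0.103 for St3gal6. In microglia the cytokine groups overlapped within 1 SD of their means for Cd5l, Cd72 and St3gal6, but not for Pmp22. The microglia markers moved with these genes in the macrophage libraries (1199 to 2217 CPM with rIL-13, 514 to 933 CPM with rIL-4), and their part in the interaction was not tested. In the microglia libraries, fibroblast and pericyte markers summed to 2529, 11198 and 2002 CPM with rIL-13 and 1782, 1228.5 and 291 CPM with rIL-4. Mitochondrially encoded protein genes took 3.28% to 3.53% of the microglia counts with rIL-13 and 6.35% to 12.2% with rIL-4. The part of these differences in the interaction was not tested either. In CPM, the macrophage level of Pmp22 was 9.99% to 17.3% of the microglia level of the same mouse with rIL-13 and 4.21% to 6.404% with rIL-4, and that of St3gal6 was 1.17% to 5.02% and 0.199% to 0.565%.

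Since the 2 libraries of a mouse share an animal, the mouse was also used as a block. With it the edgeR adjusted p was 0.0314 for Pmp22, 0.0333 for Cd5l, 0.0380 for Cd72 and 0.0714 for St3gal6, which thus lost the call. The block also gave 18 genes, 6 of them shared with the fit without it, and added the macrophage DE genes Fcrls (-1.79, edgeR adjusted p = 0.0304), Cd34 (-2.14, edgeR adjusted p = 0.0333), Tspan7 (-2.18, edgeR adjusted p = 0.0333) and Sparc (-2.27, edgeR adjusted p = 0.0437), all with a larger decrease in macrophages. When only the 10298 genes were fitted, Pmp22 alone passed (edgeR, adjusted p = 0.0415). Rnase2a gave almost the same difference in both cell types, with 882 ± 350 (SD, n = 3) normalised counts in rIL-13 microglia and 3505 ± 125 in rIL-4 microglia, a log2 difference of 1.97 ± 0.39 (SE) and an interaction of 0.18 ± 0.48 (edgeR, adjusted p = 0.960). None of the 20 genes lower with rIL-4 in macrophages passed between the cytokines in microglia, where their edgeR adjusted p was 0.334 (Ckb) or more. Since they were called in macrophages, a smaller difference in microglia is no result for those that did not pass the interaction test, 16 of the 20.

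**Figure D5:**
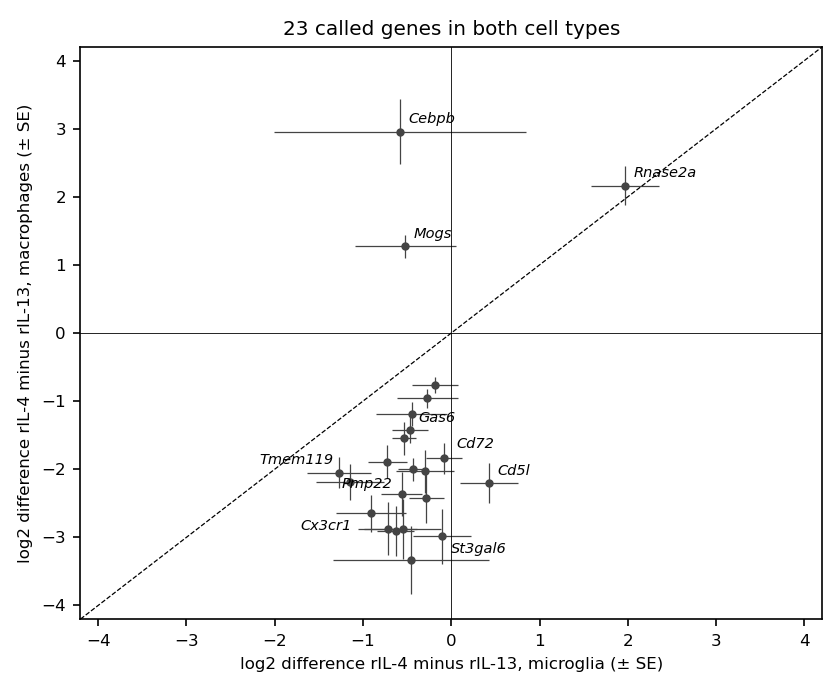
Log2 differences between rIL-4 and rIL-13 of the 23 DE genes in macrophages (vertical) against those in microglia of the same mice (horizontal), with SE bars and a dashed line of equal difference. The 20 lower genes, which were chosen by their macrophage values, lie below the dashed line, Rnase2a lies close to it, and Mogs and Cebpb are above 0 in macrophages and below 0, with wide bars, in microglia.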

How the data were processed

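Sorted macrophages and microglia of 9 mice were sequenced by SMART-seq2 from an amount of RNA that varied with the cells available, by a protocol that keeps no strand information and has no molecular identifiers. Reads were mapped by the authors to GRCm38 with STAR 2.5.3a and counted with RSEM 1.3.0, and the deposited values are expected counts per gene, given as whole numbers without normalisation, so that no rounding was needed. Reads shared by similar genes are split among these by RSEM.

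Genes outside the mitochondrial genome with at least 10 counts in each of the 6 libraries were tested with edgeR 4.0.16 (R 4.3.3) by the quasi-likelihood test after TMM normalisation, on the 9 macrophage libraries with 3 groups and 6 residual degrees of freedom. Adjusted p (Benjamini-Hochberg, all 11527 genes) had a threshold of 0.05. Standard errors were derived from the F statistic. Normalised counts are counts divided by DESeq2 size factors of the 9 libraries, and they were not divided by gene length, so that they compare libraries and not genes. The interaction was fitted on all 18 libraries with 6 groups. DESeq2 1.42.0, limma 3.58.1, edgeR with 1 surrogate variable from sva 3.50.0 and fits without single mice served as alternatives. The 3 mice per group were separate animals. Replicate libraries differed by more than sampling noise and were all kept.

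The members and the gene lists were chosen with earlier results of these data known. Named genes were up to 12 higher and 12 lower DE genes with the lowest p, and members of the lists, some of which are not reported by name here. The tests were checked on simulated counts. Macrophages and microglia with the same number came from the same mouse, as the labels state. The deviations of the 2 libraries of a mouse from their group means had correlations of 0.0534 to 0.235. Gene positions came from GENCODE vM21 (GRCm38). The 14 mitochondrial genes that passed the count minimum were left out of the tests.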

Additional observations from a re-analysis of the deposited data

Results flagged for a closer look

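The interaction of cell type with cytokine passed the edgeR threshold for 18 genes. The 4 of them with counts in every cytokine library were more negative in macrophages, with interactions of -1.57 for Pmp22, -1.77 for Cd72, -2.65 for Cd5l and -2.90 for St3gal6 on the log2 scale. With the mouse as a block St3gal6 lost the call (edgeR, adjusted p = 0.0714), in a fit of only the genes with at least 10 counts in these libraries Cd72, Cd5l and St3gal6 lost it (edgeR, adjusted p = 0.0781 for each), and without mouse 5 or mouse 6 Pmp22 lost it (edgeR, adjusted p = 0.0609 and 0.0646). The other 14, such as Zfp174 and Zfp821, were at or near 0 in all rIL-4 or all rIL-13 microglia libraries and were not DE in macrophages. The count minimum was set on the macrophage libraries only, so these 14 are not read as a difference between the cell types. In the mitochondrial genome, which lay outside the tested genes, the protein-coding genes took 1.08% ± 0.300 (SD, n = 3) of the counts in rIL-4 macrophages, above 0.619% ± 0.112 in PBS macrophages, and 0.644% ± 0.0597 in rIL-13 macrophages. The rIL-4 libraries held 0.836% to 1.41% and the rIL-13 libraries 0.604% to 0.713%, without overlap, and this difference was not tested.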

How the results depend on the processing

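Between rIL-4 and rIL-13 macrophages, 23 genes were DE (3 higher, 20 lower). The count was 334 (143 higher) with DESeq2's Wald test, 153 (64 higher) with limma voom and quality weights, 209 (58 higher) with all genes with any count, 57 (4 higher) with all 18 libraries, 7 (0 higher) with only the 6 libraries compared and 297 (126 higher) with 1 surrogate variable, a setting chosen after seeing the data. Without 1 mouse it was 1 to 45. All 23 genes were among those of DESeq2, limma voom and the surrogate variable fit, 17 were among the 57 and 6 among the 7. The counts with DESeq2 size factors (24), with edgeR's own filter (34) and with 10 counts in each of the 9 macrophage libraries (22) were within 1.5 times of 23. For the interaction (18 genes), the count was 18 with the mouse as a replicate block, 91 with DESeq2, 6 with only the 12 rIL-4 and rIL-13 libraries, 3 to 25 without 1 mouse and 1 with a count minimum in these 12 libraries, chosen after seeing the data. No paired analysis was possible between rIL-4 and rIL-13 macrophages because their mice share no numbers.

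Of the named genes, 4 changed sign in some fit, none of them DE. Il4ra was at 0.0196 with limma voom, 0.10 with the surrogate variable and -0.94 to 0.46 without 1 mouse. Il1b was at 0.24 with limma voom, 0.25 with the surrogate variable, 0.16 without mice 6 and 9 and -0.86 to 0.67 without 1 mouse, and Stat6 at -0.00213 without mice 6 and 9 and -0.0490 to 0.20 without 1 mouse. Without 1 mouse, Nos2 ran from -1.68 to 0.68. The cause of these shifts was not tested. Depth limits the precision most for genes near the minimum of 10 counts, and each group holds 3 mice.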

Other observations

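Some members of the lists with wide spread between mice were not described above. Ch25h, which makes 25-hydroxycholesterol, had 161, 291 and 129 normalised counts in rIL-13 mice 5, 6 and 7 and 408, 4074 and 970.3 in rIL-4 mice 8, 9 and 10, against 499 to 838 with PBS (log2 difference 3.23 ± 0.73, edgeR adjusted p = 0.115). The cytokine groups did not overlap, but rIL-4 mouse 9 was the highest by far. Hbegf, a ligand of the EGF receptor, had 403, 1892 and 518 with rIL-13 and 1378, 6743 and 1835 with rIL-4, with mouse 6 and mouse 9 again the highest (1.83 ± 0.67, edgeR adjusted p = 0.348). Vegfa showed the opposite pattern between mice, with 98.5, 75.9 and 119 with rIL-13 and 396, 47.4 and 328 with rIL-4, so that rIL-4 mouse 9 lay below all rIL-13 libraries (1.40 ± 0.61, edgeR adjusted p = 0.443). Cebpa, a C/EBP factor like Cebpb, had 1052, 615 and 877 with rIL-13 and 2175, 831 and 1573 with rIL-4 (0.85 ± 0.33, edgeR adjusted p = 0.374), and here mice 6 and 9 were the lowest of their groups. Mef2c, a transcription factor of microglia, had 672 to 835 with rIL-13 and 373 to 545 with rIL-4, without overlap (-0.81 ± 0.21, edgeR adjusted p = 0.164).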
